A study of Mus musculus with 20 samples.

Results

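The genes studied here encode the high mobility group box proteins HMGB1, HMGB2 and HMGB3, the receptors AGER, TLR2, TLR4 and TLR9, the co-receptors CD14 and LY96, and the adaptor MYD88. These 10 genes were taken by symbol from the 48709 genes of the deposited table and each was found once. All 10 passed the filter on low counts, which left 19797 genes for testing. RNA-seq was performed on the hippocampus of young adult C57BL/6 mice (C57BL/6J in the methods) of both sexes whose dams had breathed re-aerosolized nano-sized particulate matter (nPM) or filtered air during pregnancy. Exposure ran for 5 h on 3 days of each week from gestational day 2 until birth. The 20 samples formed 4 groups of 5, with 1 control and 1 nPM group for each sex. Females were 17.71 to 18.29 weeks old and males 18.57 to 19.14 weeks old, so the ages of the sexes did not overlap, and the labels do not give the litter of a mouse. Per the methods, male offspring had been injected with the nucleoside label EdU for another assay, which cannot be told apart from sex. The adults of each exposure came from 5 litters, so some of its mice shared a litter, and p-values measure the spread between mice without regard to litter.

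HMGB proteins are abundant nuclear proteins that bend DNA and shape chromatin. Damaged or activated cells release HMGB1, which then acts as an alarm signal that is bound by AGER and by Toll-like receptors, several of which pass the signal through MYD88 to NF-kB. In the brain these receptors are best known from microglia, and HMGB2 is known from dividing neural progenitors. The comparison of nPM with control asks whether gestational exposure left a change in the RNA of this pathway in adults, and the comparison of males with females describes how its level differed between the other pair of groups.

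Total counts ranged from 19092067 to 38663408 per sample. The Y-linked genes matched the labels in all samples, and no pair of libraries was identical. Markers of choroid plexus epithelium, which adjoins the hippocampus, set several libraries apart. The sum of 7 choroid plexus markers ran from 12.3 to 6259 RPKM (read counts scaled to gene length and library size). It exceeded 1000 RPKM in 7 libraries, which were 3 control males, 2 nPM males, 2 nPM females and no control female. The 15 microglia markers were all detected, with a sum of 129 to 203 RPKM in females and 174 to 207 RPKM in males. Because whole tissue was sequenced, fewer cells of a type and less RNA per cell cannot be told apart.

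On the RPKM scale, which corrects for gene length, Hmgb1 was the highest of the genes at 15.6 ± 2.45 (SD, n = 20), above 84.5% of tested genes. Hmgb3 followed at 4.21 ± 1.02 RPKM and Hmgb2 at 1.17 ± 0.252 RPKM, so Hmgb1 made up 74.4% ± 2.35 of the summed HMGB level. Both steps from Hmgb1 to Hmgb3 and from Hmgb3 to the next gene, Myd88, held in all 20 samples. Myd88, the adaptor, had 1.40 ± 0.288 RPKM and exceeded Hmgb2 in 15 of 20 samples. The co-receptors Ly96 (0.825 ± 0.184 RPKM) and Cd14 (0.758 ± 0.218 RPKM) and the receptor Tlr4 (0.679 ± 0.129 RPKM) were neighbours whose order changed from sample to sample, with Ly96 above Cd14 in 11 of 20 and Cd14 above Tlr4 in 13 of 20. Tlr2 (0.421 ± 0.172 RPKM) lay below Tlr4 in 19 of 20 samples and above Tlr9 in all 20. Tlr9 (0.205 ± 0.0635 RPKM) and Ager (0.159 ± 0.0769 RPKM) were the lowest, with Tlr9 above Ager in 13 of 20.

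**Figure D1:**
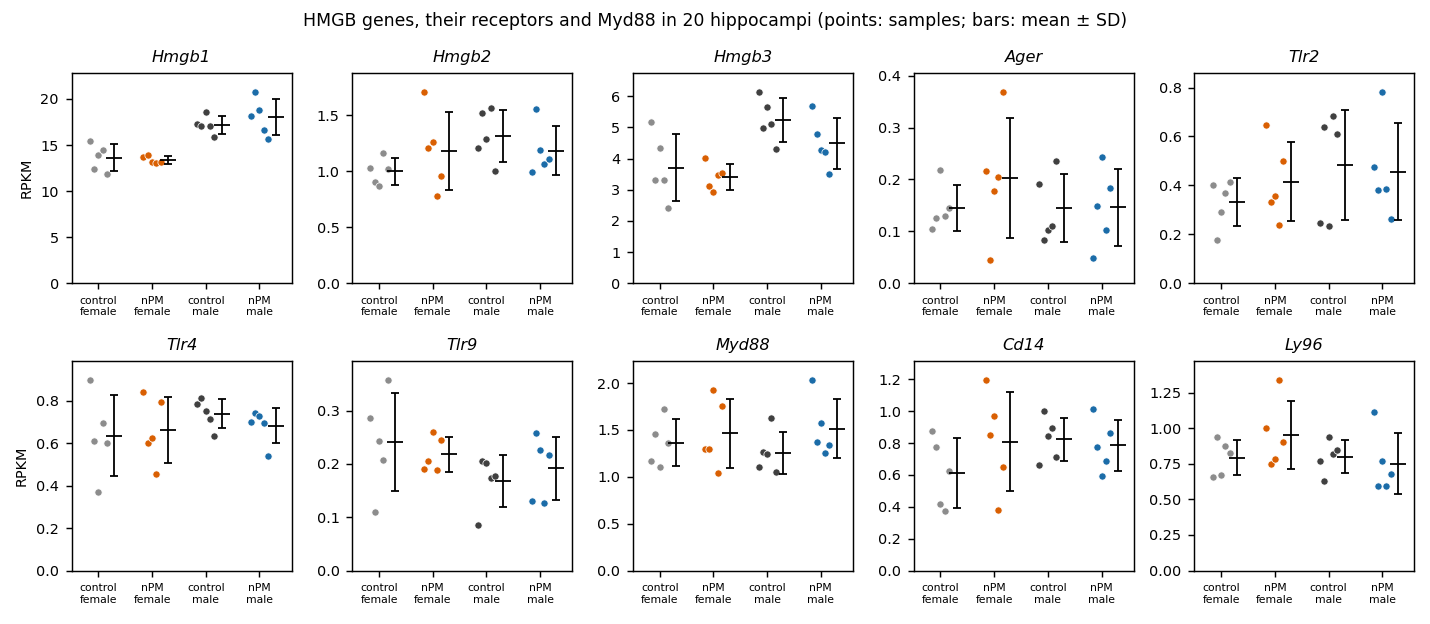
Level of each of the 10 genes in RPKM (vertical axes, from 0) in the 4 groups of 5 hippocampi, with points for samples and bars for mean ± SD. All Hmgb1 values of males lie above those of females, whereas the nPM and control points of each sex overlap for every gene.

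Hmgb1 (mm10 chr5:149046702-149184489, minus strand) is a protein-coding gene that overlaps 7 other annotated genes and has many processed copies elsewhere in the genome, and this bears on its counts. Among the annotated transcripts, 90 pseudogenes with at least 90% identity to Hmgb1 over at least 100 bases were in the count table, and 80 of them had counts. They held 30923 counts over all samples against 47892 for Hmgb1, or 39.2% of the sum. The share was 12.7% for Hmgb3 (10 copies, 840 counts) and 5.17% for Hmgb2 (7 copies, 117 counts), and no pseudogene copy was found for the other genes. Parts of protein-coding genes matched too. Tmx3 (69466 counts) matched Hmgb2 at 90.7% over 929 bases, and Ppm1e (317571 counts) matched Hmgb1 at 92.1% over 303 bases. Acaa1a (19106 counts) matched Myd88 over 224 bases. How many of their counts lie in the matching part was not tested, and they are not in these shares. The pseudogene Gm21596, 99.5% identical to Hmgb1 over 1317 bases, ranged from 2 to 394 counts between samples. The first 90 coding bases of Hmgb1 (chr5:149050648-149050737, minus strand, in an exon) are shown beside the copy with the most counts, Gm5518 (chr19:29160118-29160207, plus strand). Those of Hmgb3 (chrX:71558058-71558147, plus strand, in an exon) are shown beside Gm8850 (chr1:155179801-155179890, plus strand). They are examples of how few bases can separate a read of the gene from one of its copy. Over the whole match Gm5518 was 99.2% identical to Hmgb1 (645 bases) and Gm8850 92.2% identical to Hmgb3 (600 bases). The Hmgb3 stretch shown is therefore closer to its copy than the match as a whole. The build is GRCm38, and capitals mark the bases that differ within each pair, 1 of 90 for Hmgb1 and 2 of 90 for Hmgb3.
Hmgb1: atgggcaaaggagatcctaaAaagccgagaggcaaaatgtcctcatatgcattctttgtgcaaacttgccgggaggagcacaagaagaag
Gm5518: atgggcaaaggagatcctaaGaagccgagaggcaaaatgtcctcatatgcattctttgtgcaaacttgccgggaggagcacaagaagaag
Hmgb3: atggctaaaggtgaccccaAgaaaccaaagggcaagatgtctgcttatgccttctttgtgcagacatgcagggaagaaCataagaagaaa
Gm8850: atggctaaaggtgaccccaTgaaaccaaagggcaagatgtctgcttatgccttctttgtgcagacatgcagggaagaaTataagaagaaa

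The promoters of the genes differed in base composition. Of the 10 genes, 7 matched an entry in the RefSeq windows of GRCm38.p6 that could be shown, and the 250 bases before the start were searched on both strands for CCAAT and TATAAA and counted for CG. Among 32851 windows of all genes the median was 6 CG, 33.8% held CCAAT and 12.4% held TATAAA. The windows of Hmgb1 (chr5:149053058-149053307, minus strand), Hmgb3 (chrX:71555667-71555916, plus strand) and Tlr9 (chr9:106222348-106222597, plus strand) are given because they come from the high and the low end of the level order, with CG in capitals.
Hmgb1: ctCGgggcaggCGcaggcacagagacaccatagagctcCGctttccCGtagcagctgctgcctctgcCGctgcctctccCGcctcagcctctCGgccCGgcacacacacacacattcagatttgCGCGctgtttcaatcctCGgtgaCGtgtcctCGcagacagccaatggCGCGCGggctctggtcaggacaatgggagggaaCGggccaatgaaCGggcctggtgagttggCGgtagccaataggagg
Hmgb3: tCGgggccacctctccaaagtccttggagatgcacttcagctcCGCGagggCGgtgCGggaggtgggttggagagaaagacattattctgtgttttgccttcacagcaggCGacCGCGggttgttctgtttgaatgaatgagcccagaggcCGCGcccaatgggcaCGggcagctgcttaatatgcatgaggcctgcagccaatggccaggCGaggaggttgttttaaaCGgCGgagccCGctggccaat
Tlr9: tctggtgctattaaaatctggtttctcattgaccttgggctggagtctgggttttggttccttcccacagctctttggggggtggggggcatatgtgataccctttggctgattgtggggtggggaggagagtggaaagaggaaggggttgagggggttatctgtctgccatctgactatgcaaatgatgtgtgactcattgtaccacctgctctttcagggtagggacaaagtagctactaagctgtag
The Hmgb1 window held 19 CG and 3 CCAAT, the Hmgb3 window 15 CG and 3 CCAAT, and the Tlr9 window neither. A second Hmgb1 start (chr5:149051617-149051866) had 39 CG, which only 1.56% of windows reached, and no CCAAT. The window of Hmgb2 (chr8:57511593-57511842, plus strand) held 14 CG and 4 CCAAT. The receptor Tlr2 had 11 CG and no CCAAT, and Ager, the lowest of the 10 genes in level, had 3 CG and 1 CCAAT. Myd88 had 9 CG and no CCAAT. It was the one of the 7 genes with TATAAA, as 2 overlapping matches on opposite strands of the same stretch. These are counts of letters, and gene counts do not separate the 2 Hmgb1 starts.

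Gestational nPM was not followed by a detected change in any of these genes. A gene is called here when its unadjusted two-sided limma-voom test is under 0.005, the threshold of the study. In the fit of both sexes with sex as a covariate, 0 of 10 were called and 0 of 10 were under 0.05, against 0.141% and 2.10% of all 19797 genes. The log2 fold changes of nPM over control ran from -0.17 for Hmgb3 to 0.19 for Myd88, with a median of 0.06 against -0.01 for all genes. Every adjusted p (limma, over all genes) was 0.9998. All 10 confidence intervals lay within 2-fold of no change, the narrowest for Hmgb1 (-0.09 to 0.14) and the widest for Ager (-0.55 to 0.79).

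**Figure D2:**
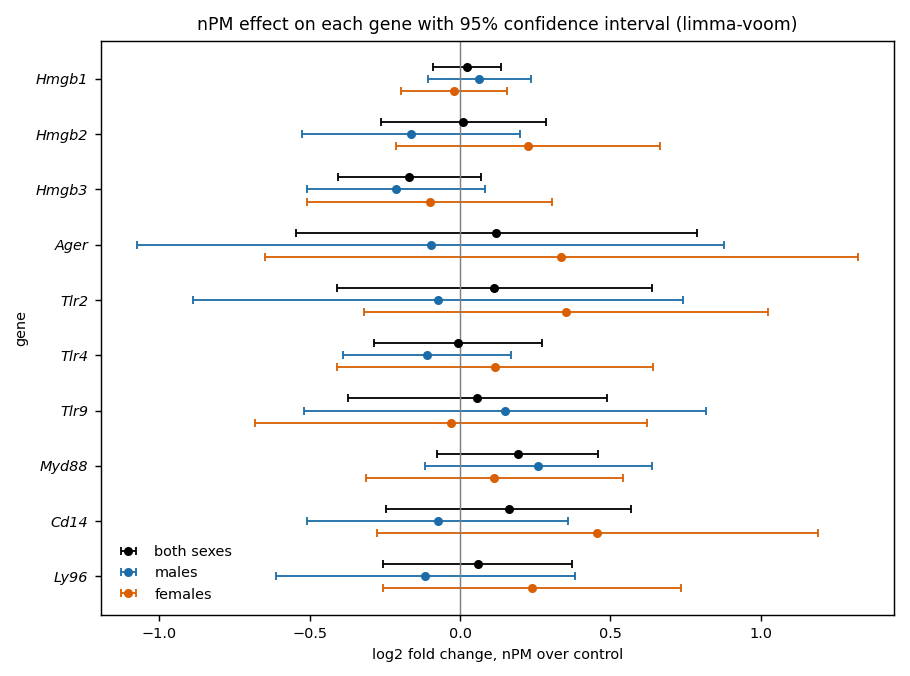
Log2 fold change of nPM over control (horizontal axis) for each gene, with 95% confidence intervals from limma-voom in both sexes (20 samples), males (10) and females (10). Every interval includes 0, and the intervals of Ager and Tlr2, which have few counts, are among the widest.

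Among the ligands, Hmgb1 had 15.5, 12.4, 13.9, 14.5 and 11.9 RPKM in the control females and 13.7, 14.0, 13.1, 13.004 and 13.2 RPKM in the nPM females. In males it had 17.3, 17.1, 18.6, 17.0 and 15.9 RPKM in controls and 18.2, 20.7, 18.8, 16.6 and 15.7 RPKM after nPM. Within each sex the nPM values overlapped the controls. The fold change was -0.02 ± 0.08 (SE) in females and 0.06 ± 0.08 in males on the log2 scale, and the exact permutation p of the group means was 0.794 in females and 0.476 in males. With the counts of the 90 copies added, the difference of means was -0.00163 in females and 0.03 in males, with exact permutation p of 0.992 and 0.794.

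Hmgb3, the X-linked family member known from embryonic and stem cells, had 5.19, 3.30, 4.33, 3.31 and 2.43 RPKM in control females and 4.01, 3.12, 2.92, 3.48 and 3.53 RPKM in nPM females. In control males it had 6.13, 4.99, 5.67, 5.10 and 4.30 RPKM, and in nPM males 5.67, 4.78, 4.26, 4.22 and 3.49 RPKM. The groups overlapped, although 3 of 5 nPM males lay below all control males. The log2 fold change was -0.21 ± 0.14 in males (adjusted p = 0.963) and -0.10 ± 0.19 in females (adjusted p = 0.99998), and the exact permutation p was 0.135 in males and 0.683 in females. The male value depended on single samples, from -0.13 without nPM male replicate 5 to -0.31 without nPM male replicate 1, and no adjusted p fell below 0.902 (limma).

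Hmgb2, the family member tied to proliferating cells, had 1.03, 0.903, 0.873, 1.17 and 1.02 RPKM in control females and 1.71, 1.21, 1.26, 0.784 and 0.962 RPKM in nPM females. The control males had 1.20, 1.52, 1.29, 1.57 and 1.004 RPKM and the nPM males 0.997, 1.56, 1.19, 1.07 and 1.11 RPKM. nPM females spread more widely than controls, with both the highest and the lowest female value among them. The log2 fold change was 0.22 ± 0.20 in females and -0.16 ± 0.17 in males, and the difference of these effects between the sexes, tested as an interaction, was -0.39 ± 0.26 (adjusted p = 0.987). Leaving out 1 sample moved the female value from 0.069 without nPM female replicate 1 to 0.33 without nPM female replicate 4, and the interaction from -0.23 to -0.50 without the same samples. The interval of that difference with all samples, -0.93 to 0.15, does not exclude a difference approaching 2-fold.

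The receptors were measured at lower depth. Ager, the receptor for advanced glycation end products, had 2 to 24 counts per sample, and counting error alone gave it a coefficient of variation of 31.1%. In females its RPKM ran from 0.105 to 0.219 in controls (median 0.130) and 0.0446 to 0.368 after nPM (median 0.205). In males it ran from 0.0834 to 0.235 in controls (median 0.110) and 0.0495 to 0.244 after nPM (median 0.150). The ranges overlapped throughout, and the log2 fold change was 0.34 ± 0.45 in females and -0.10 ± 0.45 in males, and the interval in females, -0.65 to 1.32, does not exclude a 2-fold change. The variance of Ager over the 20 samples was 2.32 times that of counting error. Tlr2, which senses bacterial lipoproteins, had a median of 0.369 RPKM in control and 0.357 in exposed females, and of 0.612 in control and 0.385 in exposed males, with log2 fold changes of 0.35 ± 0.31 in females and -0.07 ± 0.37 in males. The control males fell into 3 high values (0.640, 0.685 and 0.612 RPKM) and 2 low ones (0.247 and 0.233 RPKM), and the 3 high ones were the control males with more than 1000 RPKM of choroid plexus markers, whose part in this spread was not tested.

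Tlr4, the receptor for endotoxin, had 0.899, 0.612, 0.371, 0.696 and 0.601 RPKM in control females and 0.839, 0.601, 0.625, 0.453 and 0.792 RPKM in nPM females. In males it had 0.785, 0.810, 0.751, 0.715 and 0.633 RPKM in controls and 0.701, 0.744, 0.727, 0.696 and 0.539 RPKM after nPM. Males were closely grouped and females were not, with an SD of 0.0776 RPKM over 10 males against 0.165 over 10 females. The log2 fold change was 0.12 ± 0.24 in females and -0.11 ± 0.13 in males, and the exact permutation p was 0.754 and 0.310. Tlr9, the endosomal receptor for DNA rich in unmethylated CG, ran from 0.110 to 0.358 RPKM in control and 0.189 to 0.259 in exposed females, and from 0.0858 to 0.205 in control and 0.127 to 0.258 in exposed males, with log2 fold changes of -0.03 ± 0.30 in females and 0.15 ± 0.31 in males.

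The co-receptors Cd14 and Ly96 present endotoxin to TLR4. Cd14 had 0.876, 0.778, 0.417, 0.372 and 0.623 RPKM in control females and 1.20, 0.850, 0.971, 0.383 and 0.647 RPKM in nPM females. Its median was 0.846 RPKM in control males and 0.774 RPKM in nPM males. Cd14 had the most positive female fold change of the 10 genes, 0.46 ± 0.34 on the log2 scale, but the groups overlapped and the exact permutation p was 0.302. The male fold change was -0.08 ± 0.20 and the interaction -0.54 ± 0.39 (adjusted p = 0.987). Ly96, also known as MD-2, had a median of 0.828 RPKM in control and 0.900 in exposed females, and of 0.819 in control and 0.681 in exposed males. Its log2 fold changes were 0.24 ± 0.23 in females and -0.12 ± 0.23 in males, and its variance over the 20 samples was 1.15 times that of counting error, so most of its spread was of the size that counting gives.

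Myd88, the adaptor used by these Toll-like receptors, had 1.17, 1.45, 1.102, 1.73 and 1.36 RPKM in control females and 1.30, 1.30, 1.93, 1.04 and 1.76 RPKM in nPM females. The control males had 1.1002, 1.26, 1.25, 1.62 and 1.05 RPKM and the nPM males 2.04, 1.37, 1.58, 1.26 and 1.34 RPKM. Its mean was above that of controls in both sexes, but in each sex the ranges overlapped. The log2 fold change was 0.26 ± 0.17 in males and 0.11 ± 0.20 in females, with exact permutation p of 0.143 and 0.667. Myd88 overlaps Slc22a14 and Acaa1a in the genome, and without a stated strand setting their reads cannot be fully separated from its own.

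Within the sexes no gene was called either. In males 0 of 10 were called and 0 of 10 were under 0.05, against 0.207% and 4.28% of all genes. In females the counts were also 0 of 10, against 0.0859% and 2.00%. For the difference of the nPM effect between the sexes they were 0 of 10, against 0.217% and 3.79%. The median log2 fold change over the 10 genes was 0.17 in females and -0.09 in males, against -0.01 and -0.00 for all genes. A positive sign was seen in 7 of 10 in females and 3 of 10 in males. Some marker lists had like signs. Choroid plexus markers were positive in 7 of 7 in females (median 0.83) and 0 of 7 in males (median -0.40). Meningeal fibroblast markers were positive in 6 of 6 in females (median 0.54) and 0 of 6 in males (median -0.41). Border and blood myeloid markers had 6 of 7 and 1 of 7, and endothelial markers 6 of 7 and 3 of 7. Other lists did not. Microglia markers were positive in 13 of 15 in females (median 0.13) and 9 of 15 in males. Oligodendrocyte markers went the other way, with 0 of 6 in females (median -0.11) and 6 of 6 in males (median 0.21). Red blood cell markers had 1 of 3 and 3 of 3, and hippocampal neuron markers 4 of 8 and 6 of 8. Astrocyte markers had 2 of 6 and 1 of 6, and immature neuron markers 4 of 11 in each sex. The part of these markers in the values of the 10 genes was not tested here beyond the fits that take choroid plexus markers into account. In the interaction the smallest adjusted p of the 10 genes was 0.987 (limma). Confidence intervals lay within 2-fold for 9 of 10 genes in males, 7 of 10 in females and 6 of 10 for the interaction. edgeR and DESeq2 likewise called 0 of 10 in each of these 4 comparisons.

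Between the sexes Hmgb1 and Hmgb3 were higher in males, and the other 8 genes did not pass the test. Hmgb1 was higher by 0.38 ± 0.05 on the log2 scale (1.30-fold, adjusted p = 3.12e-05), and all 10 males lay above all 10 females, with 15.7 to 20.7 RPKM against 11.9 to 15.5 RPKM. The difference was 0.34 in controls and 0.42 after nPM, with no overlap in either and an exact permutation p of 0.00794, the smallest that 5 against 5 allows. Hmgb3 was higher by 0.44 ± 0.12 (1.36-fold, adjusted p = 0.00453), with overlapping ranges of 3.49 to 6.13 RPKM in males and 2.43 to 5.19 RPKM in females. This comparison was broad, since 31.1% of all genes were called, 13.9% with the higher level in males, 40.4% had an adjusted value under 0.05, and in 4.82% the sexes did not overlap. The 2 of 10 members called are below the 31.1% of all genes called but above the 13.9% called higher in males. Hmgb1 was the only member without overlap, against 4.82% of all genes. With 10 genes these shares were not tested against each other. Sex cannot be told apart from age here, nor from any step in which the libraries of the sexes differed.

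**Figure D3:**
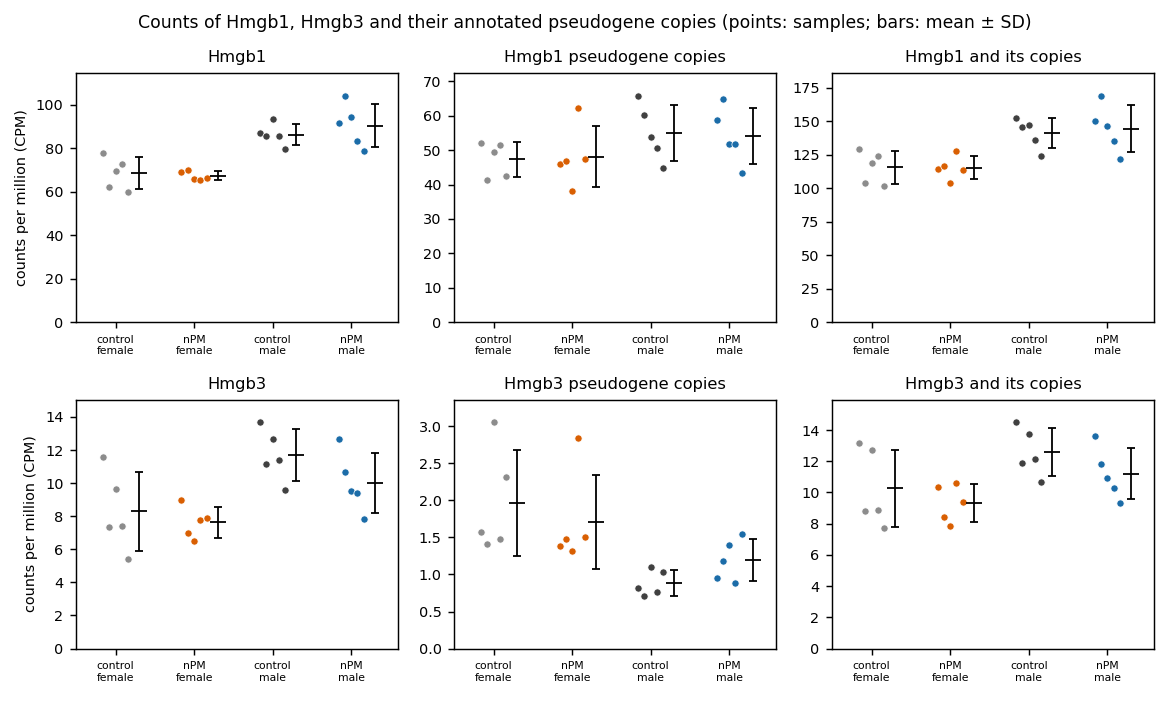
CPM, the counts scaled to library size (vertical axes, from 0), assigned to Hmgb1 and Hmgb3 (left), to their annotated pseudogene copies (middle) and to both together (right) in the 4 groups, with points for samples and bars for mean ± SD. Males lie above females for Hmgb1 alone, overlap them once the copies are added, and lie below the female mean for the Hmgb3 copies.

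The pseudogene copies changed the size of the sex difference. The summed copies of Hmgb1 had a mean of 47.3 CPM in control females and 55.0 CPM in control males, a smaller difference than for the gene. Adding them to the gene gave 0.30 ± 0.06 on the log2 scale (limma, adjusted p = 0.000508), and 8 rather than 10 males lay above all females. The copies of Hmgb3 went the other way, with a mean of 1.97 CPM in control and 1.71 in exposed females, and of 0.887 in control and 1.19 in exposed males. With them added, Hmgb3 was higher in males by 0.28 ± 0.10 (limma, adjusted p = 0.0308) and was no longer called. Hmgb3 was also not called within the controls (0.49 ± 0.17, limma adjusted p = 0.0524) or within nPM samples (0.38 ± 0.14, limma adjusted p = 0.104). How reads with several matches were assigned was not given in the sources used here.

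The sex difference was also present when choroid plexus markers were taken into account. With their level as a covariate it was 0.38 ± 0.06 for Hmgb1 and 0.49 ± 0.12 for Hmgb3, and in the 13 libraries under 1000 RPKM of choroid plexus markers it was 0.37 ± 0.07 and 0.60 ± 0.17. All 4 values were called. For nPM, 0 of 10 genes were called in these 13 libraries in any of the 4 comparisons, while the log2 fold change of Tlr2 in males was 0.59 there against -0.07 in all male libraries. Of the control males only replicates 1 and 3 are among these libraries. The 3 control males left out are those with the high Tlr2 values, so few samples carry the male values. Microglia markers were also higher in males, by a median of 0.26 on the log2 scale, with 15 of 15 positive. Of these markers 5 of 15 were called, all higher in males, against 13.9% of all genes called higher and 31.1% called in either direction. Of the astrocyte markers 3 of 6 were called higher, and of the endothelial markers 4 of 7 were called lower. Larger medians without a call were those of red blood cell markers (1.63, 3 of 3 positive), choroid plexus markers (1.27, 7 of 7 positive) and meningeal fibroblast markers (0.44, 5 of 6 positive). Proliferating and immature neuron markers had a median of 0.30 (7 of 11 positive), also without a call. Oligodendrocyte markers had a median of 0.22 (6 of 6 positive) and no call. Of the hippocampal neuron markers 1 of 8 was called lower. None of the 7 border and blood myeloid markers tested was called. The share of counts in mitochondrial ribosomal RNA had a median of 10.6% in females and 11.6% in males. The part of these last differences in the Hmgb1 and Hmgb3 values was not tested by a fit.

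The relation of each gene to the microglia markers and to a list of proliferating and immature neuron markers was computed, 20 relations in all. By r, 2 of the 20 had an adjusted permutation p under 0.05, those of Hmgb1 and Hmgb2 with the microglia level, and by rho none did. The sexes formed separate clusters of Hmgb1, so no pooled r is given for it, and within sexes r was 0.05 in females (adjusted p = 0.976) and 0.33 in males (adjusted p = 0.869, permutation tests). For Hmgb2, r with the microglia level was 0.64 over the 20 samples (permutation p = 0.00238, adjusted p = 0.0476), while rho was 0.52 (permutation p = 0.0195, adjusted p = 0.133). Without nPM female replicate 4 and control female replicate 2, which had the microglia levels farthest from the median, r was 0.44 (permutation p = 0.0632). The size of the Hmgb2 relation therefore depended in part on those samples. Within sexes its r was 0.71 in females (adjusted p = 0.232) and 0.20 in males (adjusted p = 0.912). For Tlr4, Tlr2 and Cd14 the pooled r was 0.54, 0.53 and 0.54, each with an adjusted permutation p of 0.0587, and the pooled rho was 0.28, 0.38 and 0.32. Without the same 2 samples their r was 0.39, 0.31 and 0.45. Within sexes it was 0.58, 0.71 and 0.57 in females but -0.11, 0.35 and -0.16 in males, none with an adjusted permutation p under 0.05. None of the 10 relations to the proliferating and immature neuron markers passed an adjusted p of 0.05, either by r or by rho.

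**Figure D4:**
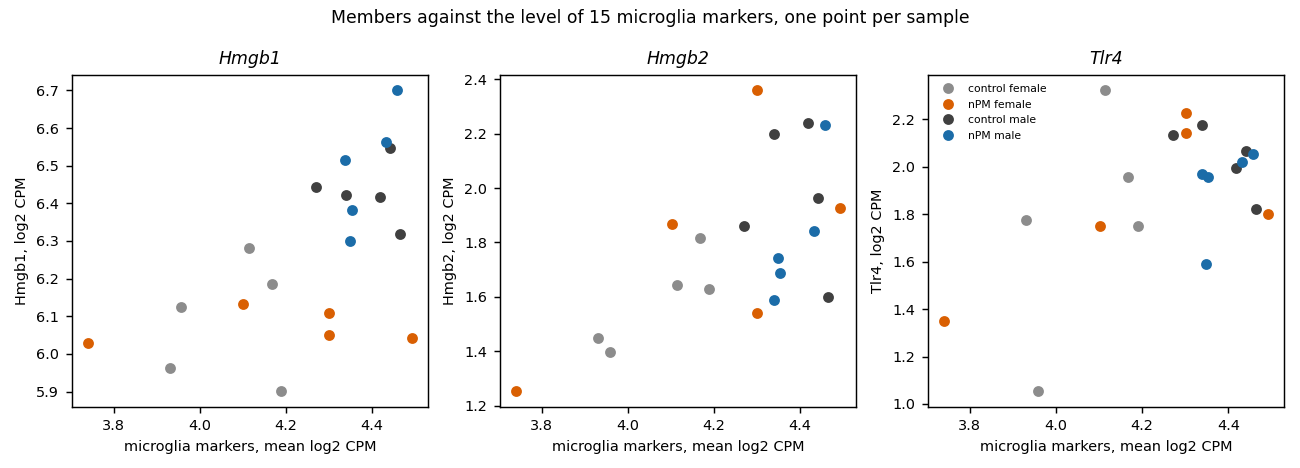
Log2 CPM of Hmgb1, Hmgb2 and Tlr4 (vertical axes) against the mean log2 CPM of 15 microglia markers (horizontal axes), one point for each of the 20 samples, coloured by group. The lowest microglia level belongs to nPM female replicate 4, and all Hmgb1 values of males lie above those of females. The control females have microglia levels of at most 4.19 and the males of at least 4.27, so only nPM females reach the male levels. The part of the microglia level in the Hmgb1 difference was not tested by a fit.

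Around these genes, 117 others of the pathway were listed by role, and 103 of them could be tested. After nPM, 1 was called higher and 1 lower in both sexes together, 1 was called lower in males and none was called in females or in the interaction. The 2 calls in both sexes are 1.94% of the 103 genes against 0.141% of all genes, and the 1 in males is 0.971% against 0.207%. The lists were chosen with earlier results of these data known, and the paper itself names Il12a in this pathway as lowered by nPM. These shares are therefore no independent test of the pathway. Of the 103, 7 were under 0.05 in both sexes, 5 in males, 8 in females and 4 in the interaction. The shares of all genes were 2.10%, 4.28%, 2.00% and 3.79% in the same order. The gene that rose was Irf5, a transcription factor activated downstream of MYD88, by 0.31 on the log2 scale (limma, adjusted p = 0.9998). Its mean was 1.14 ± 0.0925 RPKM in nPM females against 0.813 ± 0.106 in control females, and 0.972 ± 0.0345 against 0.883 ± 0.109 in males. The gene that fell was Il12a, which encodes a subunit of interleukin 12, by 1.06 on the log2 scale (limma, adjusted p = 0.9998), on 3 to 34 counts per sample. In males Tox, an HMG-box transcription factor of lymphocytes and neural progenitors, fell by 0.67 (limma, adjusted p = 0.963), from 2.31 ± 0.459 RPKM to 1.47 ± 0.429.

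The lists showed the following by role. Of 16 other HMG proteins tested, 0 passed for nPM in both sexes together, and Hmga1, an AT-hook chromatin protein, had a fold change of -0.24 (limma, adjusted p = 0.9998). Of 9 other Toll-like receptors 0 passed, and Cd180, a TLR4-like receptor of lymphocytes and myeloid cells, had 0.89 in females and -0.14 in males with an interaction of -1.03 (limma, adjusted p = 0.987). Of 8 accessory and trafficking proteins 0 passed. Of 22 adaptors and kinases 0 passed, with Irak3, an inhibitor of this signalling, at -0.53 in males (limma, adjusted p = 0.963). Of 11 other HMGB1 partners 0 passed, and Itgam, the integrin subunit of myeloid cells, had 0.26 in both sexes (limma, adjusted p = 0.9998). Of 8 genes listed as other AGER ligands and 11 genes of HMGB1 release and modification 0 passed. Of the response genes only 7 of 15 had counts enough to test, and Tnf, Il1b, Il6 and Ccl2 were among those left out. Cxcl10, an interferon-induced chemokine, had 1.45 (adjusted p = 0.9998) on 0 to 23 counts per sample.

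In the male with female comparison 28 of the 103 pathway genes were called, or 27.2% against 31.1% of all genes. Of these, 18 were higher and 10 lower in males, and of all genes 13.9% were called higher in males. Among the higher ones were the chromatin proteins Hmgn2 (0.40, adjusted p = 0.000361) and Hmgn1 (0.25, adjusted p = 0.00272), the mitochondrial HMG-box factor Tfam (0.27, adjusted p = 0.000540) and the Toll-like receptor trafficking protein Tmed7 (0.52). All 8 tested genes listed as AGER ligands had a positive sign and 4 passed, against 13.9% of all genes called higher. The 4 include S100a10 (0.60, limma adjusted p = 0.000559) and the glial calcium-binding protein S100b (0.26, limma adjusted p = 0.000275). With 8 genes these shares were not tested against each other. Among the lower ones were Nfkb1, the p50 subunit of NF-kB (-0.35), the kinases Ikbkb (-0.34) and Chuk (-0.23) that release NF-kB, whereas Ikbkg, the regulatory subunit of the same complex, was called higher (0.23). Also lower were Ep300 (-0.36), Hdac4 (-0.33) and Parp1 (-0.35), enzymes known to modify HMGB1. These values share the limits given above for sex and age.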

How the data were processed

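Total RNA of 20 hippocampi was sequenced after ribosomal RNA depletion (Illumina RiboZero Gold, HiSeq). Per the labels and the methods, the authors checked reads with FastQC, trimmed adapters with Trimmomatic where needed, aligned with HISAT2 to mm10 (GRCm38) and counted genes of Gencode M11 with featureCounts 1.5.0-p3. Their strand and multiple-match settings were not given in the sources used here. The deposited counts are raw read counts per gene. A second deposited table gives gene lengths and the authors' mean RPKM over all samples, which was recomputed from the counts (largest difference 4.37e-11) and not used further. The concentration of nPM is left out because the labels and the methods give it in different units.

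Genes were kept with filterByExpr over the 4 groups (minimum count 10, minimum total 15). Effects were fitted with limma 3.58.1 (TMM factors from edgeR 4.0.16, voom, eBayes, R 4.3.3), two-sided, called under an unadjusted threshold of 0.005 as in the study, with Benjamini-Hochberg adjustment over all 19797 genes. The 5 fits were nPM in both sexes with sex as a covariate, nPM in males, nPM in females, the interaction, and male against female with exposure as a covariate. Single genes were also compared by exact permutation of 5 against 5 (252 groupings) on log2 CPM with 0.5 added to each count. RPKM divides TMM-scaled CPM by the deposited gene length. Relations used 100000 permutations. DESeq2 1.42.0 and edgeR's quasi-likelihood test were alternatives. Others were RLE factors, no filter on low counts, robust moderation, weights for sample quality, a replicate block, an age covariate, a joint fit of the 4 groups and leaving out each sample. Added after seeing the data were fits of control or nPM samples alone, choroid plexus level as a covariate, only libraries under 1000 RPKM of choroid plexus markers, and pseudogene copies added to their gene. Copies were found with BLAST 2.17.0 against Gencode M21 transcripts. The fits were tested on simulated data. The genes, pathway lists and marker lists were chosen with earlier results of these data known. All 10 genes were named, with, of each pathway list, genes called in any fit or with the smallest p in the fits of males, females or both sexes, of which a selection is given. The labels describe the samples of a group as separate mice. Per the methods they came from 5 litters per exposure.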

Additional observations from a re-analysis of the deposited data

Results flagged for a closer look

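In 40 sets of 5 values (10 genes in 4 groups), 2 had a sample far from the other 4 by Dixon's test, where chance gives about 1 in 20. Tlr4 in nPM male replicate 5 had 1.59 log2 CPM (99 counts), against 1.96, 1.97, 2.02 and 2.05 in the other nPM males. Tlr9 in control male replicate 1 had -1.66 log2 CPM (8 counts), against -0.70, -0.67, -0.47 and -0.45 in the other control males.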

How the results depend on the processing

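No alternative led to a call of any of the 10 genes for nPM in both sexes, males, females or the interaction. Their smallest adjusted p over all alternatives was 0.9994 in both sexes, 0.678 in males, 0.966 in females and 0.705 in the interaction. For male against female 2 genes were called in every alternative but 3, where 1 was called: control samples only, nPM samples only, and pseudogene copies added. Of 1380 values of single genes under alternatives, 1310 kept their direction and side of the threshold, 67 changed sign and 3 lost the call, and no value that changed sign had passed the test. Genes called numbered 28, 41, 17 and 43 of 19797 for both sexes, males, females and the interaction, but 44, 122, 82 and 127 with DESeq2, 26, 41, 28 and 66 with edgeR, 53, 51, 41 and 64 with quality weights, 14, 56, 31 and 133 in the libraries low in choroid plexus markers, and 39, 74, 22 and 54 with choroid plexus level as a covariate. Without a filter 71, 132, 89 and 149 of 35001 passed. For male against female 6147 passed, against 3760 in controls only, 2184 in nPM samples only and 2957 in the libraries low in choroid plexus markers.

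Same-numbered samples of the 2 exposures did not deviate together (r from -0.40 to 0.16). These values show no pairing by number, but they cannot exclude one. With the number as a replicate block, 0 of 10 genes passed for nPM in each comparison and 2 of 10 for sex, with Hmgb1 at 0.38 and Hmgb3 at 0.45.

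Changes of sign, as log2 fold changes, were as follows, and the cause was not tested. With sample quality weights Ly96 was -0.025 in both sexes, Ager 0.084 in males and -0.068 in females, Tlr9 0.045 in females, and in the interaction Ager was 0.17 and Tlr9 -0.0068. With age as a covariate Tlr4 was -0.023 in females. With choroid plexus level as a covariate Ager was 0.032 in males and Tlr9 0.00079 in females. In libraries low in choroid plexus markers Hmgb1 was -0.054, Hmgb2 -0.039 and Ager -0.31 in both sexes, Hmgb1 -0.095, Tlr2 0.59 and Cd14 0.16 in males, Ager -0.16, Tlr2 -0.031 and Tlr4 -0.12 in females, Hmgb1 -0.069 and Tlr2 0.62 in the interaction, and Tlr2 -0.062 for male against female. For male against female, Hmgb2 was -0.0061, Myd88 0.037 and Cd14 -0.025 in nPM samples only, and Ly96 was 0.025 in controls only.

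Leaving out 1 sample at a time gave these ranges where the sign changed. In both sexes they were -0.0052 to 0.046 for Hmgb1, -0.069 to 0.068 for Hmgb2, -0.0303 to 0.30 for Ager, -0.095 to 0.045 for Tlr4, -0.052 to 0.13 for Tlr9 and -0.0035 to 0.10 for Ly96. In males they were -0.32 to 0.24 for Ager, -0.29 to 0.10 for Tlr2, -0.046 to 0.28 for Tlr9 and -0.18 to 0.021 for Cd14. In females they were -0.067 to 0.026 for Hmgb1, -0.22 to 0.031 for Hmgb3, -0.077 to 0.26 for Tlr4 and -0.26 to 0.11 for Tlr9. In the interaction they were -0.25 to 0.0034 for Hmgb3 and -0.016 to 0.40 for Tlr9, and for male against female -0.097 to 0.018 for Myd88. Depth limits Ager (2 to 24 counts) and Tlr9 (8 to 31 counts) most.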
